A study of Mus musculus with 20 samples.

Results

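The 3 members of the NR4A family of nuclear receptors (Nr4a1, Nr4a2 and Nr4a3) were followed together with Arc, Npas4 and Crem in RNA-seq libraries of mouse DC2 cells. These 6 genes were found by their symbols among the 21509 protein-coding genes of both deposited abundance tables. DC2 is a single immortalized line of principal cells from the distal caput of the epididymis, and its cells extend primary cilia after serum starvation. One experiment compared 6 libraries of cells that received flow for 3 h, with the shear stress set to 1 dyn/cm2 (flow), with 6 libraries of cells kept for 3 h without flow (static). The other compared 4 libraries of cells given Ift88 siRNA, a mix directed at an intraflagellar transport gene needed for cilia, with 4 libraries of cells given control siRNA. The study's methods place both siRNA groups under flow, whereas their labels do not name a flow condition. All groups are the same line grown with dihydrotestosterone and then starved of serum in microfluidic channels, so the replicates are libraries of 1 line and not of separate animals.

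The 6 genes are textbook immediate early genes of neurons, meaning that a stimulus can raise their transcripts before any new protein is made. Synaptic activity lets calcium into a neuron, calcium- and cAMP-dependent kinases phosphorylate CREB, and CREB bound to a cAMP response element (CRE) near a promoter recruits its coactivators. NR4A proteins are orphan receptors that act as transcription factors without a known hormone, bind DNA as monomers or dimers, and are therefore controlled largely by how much of them is made. Npas4 encodes a basic helix-loop-helix factor that pairs with ARNT or ARNT2, Crem encodes CRE-binding activators and, from an internal promoter, the ICER repressors, and Arc encodes a cytoskeleton-associated protein that removes glutamate receptors from synapses. Several of these genes are also switched on outside the nervous system by serum, hormones or mechanical stimuli.

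The 250 bases before the start sites were examined for the CRE half-site, since the NR4A genes and Npas4 are classed as CREB targets. RefSeq windows on GRCm38.p6 were matched for 4 of the 6 genes, whereas Arc and Crem were not matched. The half-site searched was TGACG on either strand, so that CGTCA counts as a match on the other strand, and each full site TGACGTCA contains overlapping matches of it. The windows of Nr4a1, Nr4a2 and Nr4a3 each held 4 matches and that of Npas4 held 2. Among all 32851 windows of this length, 17.8% held at least 1 match, 3.90% at least 2 and 0.137% at least 4. The sequences below show how the matches are spaced in the NR4A family, with matches in capitals and each sequence read 5′ to 3′ towards the start site. They lie at chr15:101266596-101266845 on the plus strand (Nr4a1), chr2:57124004-57124253 on the minus strand (Nr4a2) and chr4:48045055-48045152 on the plus strand (Nr4a3, the 98 bases of its window that lie outside annotated exons).
Nr4a1: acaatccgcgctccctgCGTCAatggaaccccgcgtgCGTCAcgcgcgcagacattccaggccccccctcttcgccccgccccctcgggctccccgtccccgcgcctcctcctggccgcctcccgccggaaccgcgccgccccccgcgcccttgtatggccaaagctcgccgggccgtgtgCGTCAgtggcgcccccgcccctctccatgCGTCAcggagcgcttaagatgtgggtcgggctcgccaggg
Nr4a2: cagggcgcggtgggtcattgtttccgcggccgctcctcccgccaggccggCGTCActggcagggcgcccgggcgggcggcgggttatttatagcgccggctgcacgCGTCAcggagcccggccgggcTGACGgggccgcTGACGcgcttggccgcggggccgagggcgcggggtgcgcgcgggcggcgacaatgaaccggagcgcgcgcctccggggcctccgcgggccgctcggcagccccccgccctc
Nr4a3: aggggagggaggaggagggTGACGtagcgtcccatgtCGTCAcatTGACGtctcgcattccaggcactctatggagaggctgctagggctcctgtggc
In Nr4a1 the matches began 233, 213, 69 and 40 bases before the start site, all on the minus strand. In Nr4a2 they began 200, 144, 123 and 111 bases before it, and in Nr4a3 they began 231, 213, 205 and 147 bases before it, the last inside an exon and not shown. The pair of Npas4 matches began 179 and 169 bases before its start site, on opposite strands. None of these 4 windows held the full site TGACGTCA (1.55% of all windows do), a strict CArG box, the element bound by serum response factor (1.47%), or AAAGGTCA, the element that NR4A monomers bind (1.34%). The CArG search took only CC, then 6 letters A or T, then GG. Near matches were not counted, and the Nr4a1 window holds ccttgtatgg, which is 1 letter off this pattern. GC content was 74.4% for Nr4a1, 80.0% for Nr4a2, 63.6% for Nr4a3 and 68.8% for Npas4, against a median of 52.4% over all windows. A match is a run of letters and was not measured as a bound site here.

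The deposited values are TPM, transcript abundances that are corrected for transcript length and sum to 1000000 in each library, so levels of different genes can be compared within a library. Depth is lost in TPM, but steps among values under 0.3 TPM placed the relative depth of libraries between 0.897 and 1.22 in the flow experiment and between 0.931 and 1.34 in the siRNA experiment. The title of 1 library says flow while its treatment label says static, and it was taken as flow replicate 6, since its column name and the study's 6 libraries per condition go with the title. Replicates 5 and 6 of both the flow and the static group stood apart from replicates 1 to 3 on the first principal component, which held 34.4% of the variance, with replicate 4 between them. For the members whose mean reached 1 TPM, values within replicates 1 to 3 and within replicates 4 to 6 are therefore given beside the pooled ones. Of 10 neuron markers, 2 (Map2 and Tubb3) reached a mean of 1 TPM in each group, and Stmn2 and Nefl were at 0 in all 12 libraries of the flow experiment. Their summed level was 31.1 to 58.3 TPM under flow and 24.0 to 61.9 TPM in static cells. Of 6 epididymal principal cell markers, 2 reached a mean of 1 TPM in both the flow and the static group, Pax2 among them. Aqp9, whose protein the paper stains to mark principal cells, had a mean of 0.168 TPM with flow and 0.174 TPM without it. Lcn5 was at 0 in every flow library, and its static mean was 0.046 TPM. Crisp1 was at 0 in all 20 libraries. The summed level of 5 epithelial markers was 53.1 to 279.5 TPM under flow, 47.5 to 125 TPM in static cells and 2870 to 3335 TPM in the siRNA libraries, which were normalised in a separate table and were not compared with the flow libraries by a test. Cldn4 and Krt18 carried these sums, while the means of Epcam, Cdh1 and Krt8 did not exceed 1.16 TPM in any group. Cldn4 was at 66.2 ± 57.5 TPM under flow against 30.3 ± 14.3 TPM in static cells (log2 fold change 0.83, limma adjusted p = 0.998, and called with the block at 0.0426), and its part in the results below was not tested. The summed leukocyte, endothelial and germ cell markers did not exceed 1.74 TPM in any group. The 4 fibroblast markers summed to 1.75 to 4.87 TPM under flow and 2.02 to 5.90 TPM in static cells, where Dcn alone reached a mean of 1 TPM.

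Flow was compared with static culture to ask which of these genes respond to shear stress at 3 h. For Arc, Nr4a1 and Npas4, each of the 6 flow values lay above every static value. Nr4a2 was higher under flow within each of the 6 replicate pairs by a smaller amount, whereas Nr4a3 stayed near the limit of detection and Crem did not differ beyond its spread. Log2(TPM + 1) values were compared with limma over the 11388 genes whose mean reached 1 TPM, and genes were called at a Benjamini-Hochberg adjusted p-value under 0.05 with a change of more than 1.5-fold. Arc, Nr4a1, Nr4a2 and Crem were tested in this way, while Nr4a3 and Npas4 fell under the filter. None of the 4 tested members was called by limma, although 2 of them (Arc and Nr4a1) had an unadjusted p-value under 0.05, as did 3.85% of all genes tested. Over all genes tested 12 were called (0.105%), each higher under flow. With the replicate number as a block, 1 of 4 members was called (Arc), against 68 genes (0.597%), and 3 of 4 had an unadjusted p-value under 0.05, as did 11.1% of all genes. Since RNA was taken from whole cultures, a change in the share of responding cells and a change in RNA per cell cannot be told apart.

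**Figure D1:**
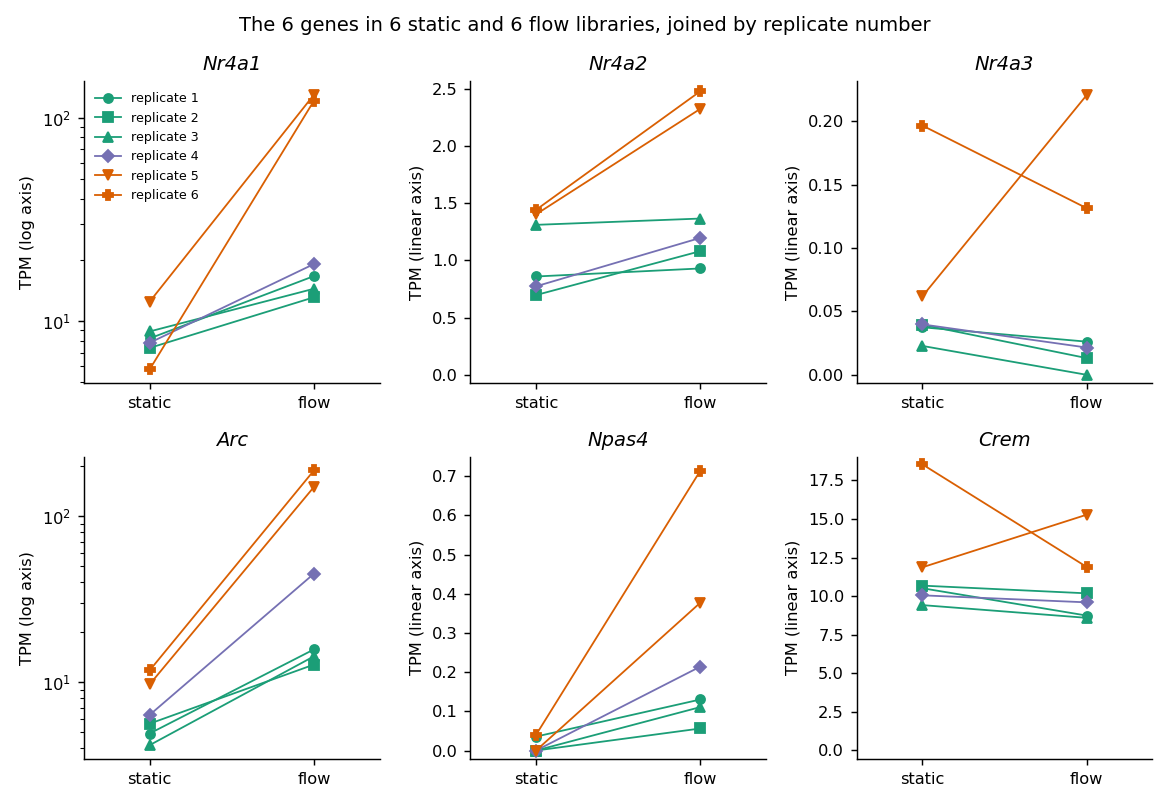
TPM of each gene in the 6 static and 6 flow libraries, with a line joining libraries of the same replicate number; the axes of Nr4a1 and Arc are logarithmic and the others linear. The flow values of Nr4a1, Arc and Npas4 all lie above their static values, and replicates 5 and 6 reach 121 TPM or more for Nr4a1 and 150.3 TPM or more for Arc under flow.

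Among the NR4A receptors, Nr4a1 (Nur77, ENSMUSG00000023034) supplied most of the family's transcripts in every library. It lies on chromosome 15 of GRCm38 from 101254269 to 101274795 on the plus strand, with 4 annotated transcripts and no overlapping gene. Its TPM ranged from 13.1 to 129.5 under flow (median 17.9) and from 5.79 to 12.5 in static cells (median 8.03), so the groups did not overlap. Across genes whose mean reached 1 TPM, 0.492% had every flow library above every static library. The flow libraries themselves fell apart into replicates 1 to 4, at 13.1 to 19.1 TPM, and replicates 5 and 6, at 129.5 and 121 TPM. Within pairs the flow to static ratio was 2.02, 1.77, 1.62, 2.44, 10.4 and 20.9 for replicates 1 to 6. The log2 fold change was 1.83 (standard error 0.54, limma adjusted p = 0.465), and 0.114 was the adjusted p with the replicate block. By a two-sided exact permutation test of log2(TPM + 1), p = 0.00216, which is the lowest p that 6 libraries against 6 allow, and the exact test over the 6 pairs gave 0.0312, also its smallest value. Within replicates 1 to 3 the log2 fold change was 0.77 (standard error 0.13, limma adjusted p = 0.170), and within replicates 4 to 6 it was 2.88 (standard error 0.67, limma adjusted p = 0.245). Counting flow replicate 6 as static brought the log2 fold change of Nr4a1 to 0.91 (limma adjusted p = 1.00).

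Nr4a2 (Nurr1, ENSMUSG00000026826), a receptor best known from dopamine neurons, was far less abundant. The gene lies on chromosome 2 from 57106830 to 57124003 on the minus strand, with 6 annotated transcripts. It ranged from 0.929 to 2.48 TPM under flow (median 1.28) and from 0.696 to 1.44 TPM in static cells (median 1.08). The groups overlapped, and only flow replicates 5 and 6 exceeded every static library. Within pairs the flow to static ratio lay between 1.04 and 1.72, above 1 in 6 of 6 pairs. In replicate 1 this was about 49 reads under flow and 48 in static cells, a difference within counting error. The log2 fold change was 0.28 (standard error 0.18, limma adjusted p = 0.998), and the block gave an adjusted p of 0.395. Within replicates 1 to 3 the log2 fold change was 0.13 (standard error 0.20), and within replicates 4 to 6 it was 0.43 (standard error 0.25). The exact permutation test gave p = 0.158 without pairing and 0.0312 over the 6 pairs, the smallest value that 6 pairs allow. With flow replicate 6 counted as static, the log2 fold change was 0.07.

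Nr4a3 (Nor1, ENSMUSG00000028341; chromosome 4, 48045153 to 48086447, plus strand) was scarcely detected. It reached 0 to 0.221 TPM under flow (median 0.0238) and 0.0228 to 0.197 TPM in static cells (median 0.0396), or about 0 to 17 reads per library if its longest coding transcript is assumed. One flow library was at 0, and 3 reads correspond to 0.0285 to 0.0391 TPM in the flow libraries, so most values lay near the level of single reads. Flow was above static in 1 of 6 pairs, and the exact permutation test gave p = 0.987. The value of 0.197 TPM in static replicate 6 stood apart from the other 5 static libraries.

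The makeup of the family differed between the groups. Nr4a1 made up 91.4% to 98.1% of the summed NR4A TPM under flow (median 94.3%) and 78.0% to 90.9% in static cells (median 89.8%). Nr4a2 accounted for 1.76% to 8.64% under flow and 8.57% to 19.4% in static cells. Nr4a3 did not exceed 2.65% in any of these libraries. These shares restate the values above and were not tested.

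Arc (ENSMUSG00000022602; chromosome 15, 74669083 to 74672570, minus strand, 2 annotated transcripts, no overlapping gene) had the largest fold change among the tested members. It ranged from 12.8 to 189 TPM under flow (median 30.4) and from 4.16 to 11.8 TPM in static cells (median 5.97). Every flow library exceeded every static library, although flow replicate 2 (12.8 TPM) lay just above static replicate 6 (11.8 TPM). Within pairs the ratio was 3.21, 2.27, 3.44, 7.11, 15.5 and 16.1 for replicates 1 to 6, and so each pair of replicates 4 to 6 changed by more than each pair of replicates 1 to 3. The log2 fold change was 2.42 (standard error 0.62, limma adjusted p = 0.251), the 7th highest of the 11388 genes tested. With the replicate block the standard error was 0.35 and Arc was called (limma adjusted p = 0.0108). Without the filter on low TPM, the blocked fit gave Arc an adjusted p of 0.28, and limma then called 0 of 18564 genes, with 7.83% at an unadjusted p-value under 0.05.

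Arc was also called within each set of replicates analysed alone. Within replicates 1 to 3 its log2 fold change was 1.38 (standard error 0.14, limma adjusted p = 0.0316), where 0.0443% of genes were called. Within replicates 4 to 6 it was 3.46 (standard error 0.49, limma adjusted p = 0.0305), where 0.490% were called. The exact permutation test gave p = 0.00216 without pairing and 0.0312 over the 6 pairs, the smallest value in each case. In blocked fits that each left out 1 pair, Arc stayed called without replicate 2, 3, 4, 5 or 6, and without replicate 1 its adjusted p was 0.0940. Leaving out replicate 6, the pair with conflicting labels, gave a log2 fold change of 2.12 (limma adjusted p = 0.0241), whereas counting its flow library as static gave 1.31 (limma adjusted p = 1.00).

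Npas4 (ENSMUSG00000045903; chromosome 19, 4984355 to 4990316, minus strand) was at few reads under flow and at almost none in static cells. It was at 0.0562 to 0.714 TPM under flow (median 0.172), above 0 in 6 of 6 libraries. In static cells 4 of 6 libraries were at 0 and the others at 0.0355 and 0.0400 TPM. This corresponds to about 3 to 37 reads per flow library and 0 to 2 per static library for a transcript of 3622 bases, and to about 86 reads against 4 in all. Both groups are low enough that 3 reads, or 0.0532 to 0.0604 TPM in the static libraries, is an upper limit for a library at 0, and no ratio of TPM is given. The values of the groups did not overlap, although flow replicate 2, at 0.0562 TPM or about 3 reads, lay within the range of that limit. By the exact permutation test p = 0.00216 without pairing and 0.0312 over the 6 pairs. Among the 18564 genes above 0 in any library of the experiment, 0.307% had every flow library above every static library. The log2(TPM + 1) differences within pairs were 0.08 to 0.15 for the first 3 replicate numbers and 0.28 to 0.72 for the other 3, in a range where the added 1 compresses any change. Without the filter on low TPM, limma gave a log2 fold change of 0.30 (adjusted p = 1.00).

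Crem (ENSMUSG00000063889; chromosome 18, 3266048 to 3337748, minus strand) differed from these genes. Its 39 annotated transcripts include activator and ICER forms, which the gene-level TPM do not separate, and a noncoding gene (Gm6225) overlaps it on the opposite strand. Crem ranged from 8.59 to 15.3 TPM under flow (median 9.89) and from 9.42 to 18.5 TPM in static cells (median 10.6). The groups overlapped widely, and flow was above static in 1 of 6 pairs. The log2 fold change was -0.12 (95% confidence interval -0.48 to 0.23, limma adjusted p = 0.998), and the exact permutation test gave p = 0.511. Without static replicate 6 alone the log2 fold change was 0.00, whereas in the blocked fit without that pair it was -0.03. Within replicates 1 to 3 it was -0.14, and within replicates 4 to 6 it was -0.11.

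The order of the 6 genes differed between the groups. In static cells the highest mean was that of Crem (11.9 TPM), followed by Nr4a1 (8.43 TPM) and Arc (7.08 TPM), and the ranges of these neighbours overlapped. Under flow the order was Arc (71.2 ± 78.2 TPM, SD, n = 6), Nr4a1 (52.3 ± 56.6 TPM) and Crem (10.7 ± 2.54 TPM). Arc exceeded Nr4a1 in 3 of 6 flow libraries, so their order did not hold across replicates, whereas Nr4a1 exceeded Crem in 6 of 6. Crem and Nr4a2, and Nr4a2 and the gene below it, did not overlap in either group.

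The genes whose changes within the 6 pairs were closest to those of a member were found by the mean absolute difference of log2(TPM + 1) changes. For Nr4a1 these were Dusp2 (mean difference 0.161), a nuclear MAP kinase phosphatase, Lif (0.349), a cytokine of the IL-6 family, and Csf2 (0.376), which encodes GM-CSF. For Arc they were Dusp5 (0.218), a phosphatase of ERK, Btg2 (0.303), an antiproliferative early gene, and Junb (0.307), an AP-1 subunit. A single gene lay within 0.25 of Nr4a1 and a single gene within 0.25 of Arc. By contrast 680 genes lay this close to Nr4a2, led by Jund, Lmcd1 and Irf2bpl, and 3945 to Crem, led by Pfkfb2, Fam50a and Armc7. All these values come from the same 12 libraries and describe likeness over 6 pairs.

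Related genes were counted from lists drawn up by role, with earlier results of these data known. The counts therefore describe the lists and are not independent support. Of 13 early genes that neurons switch on with activity, 11 were tested and all 11 had a positive log2 fold change. Their median was 2.13, against -0.03 over all genes tested, and 2 were called, where 0.105% of all genes were. The called genes were Egr1 (42.5 ± 24.3 TPM in static cells and 377 ± 239.9 TPM under flow), a zinc finger factor, and Ier2 (42.3 ± 8.81 and 194 ± 98.9 TPM). The range ran from Rheb (log2 fold change 0.09), a GTPase upstream of mTOR, to Fosb (3.76), an AP-1 subunit. With the block 8 of the 11 were called, including Fosb (limma adjusted p = 0.0122), where 0.597% of all genes were. Of 16 other early genes linked to CRE, 13 were tested (median 0.37) and 1 was called, the neurotrophin gene Bdnf (6.86 ± 1.17 TPM in static cells and 16.0 ± 3.66 TPM under flow). They ran from -0.23 (Ppargc1a, a coactivator) to 1.73 (Dusp1, a MAP kinase phosphatase). With the block 4 of the 13 were called, against the same 0.597% of all genes. Without the filter on low TPM, the blocked fit called 0 of 18564 genes.

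The upstream and partner genes showed small differences. None of 9 genes of CREB family members and coactivators was called by limma (log2 fold changes -0.11 to 0.11, 0 with an unadjusted p-value under 0.05), nor any of 14 tested calcium decoders such as calmodulins, calcineurin subunits and CaM kinases (-0.19 to 0.07, likewise 0). Of 11 tested calcium-, SRF- or MEF2-linked transcription factors, 0 were called by limma and 1 had an unadjusted p-value under 0.05, Srf, with 38.2 ± 2.71 TPM in static cells and 71.2 ± 25.0 TPM with flow (log2 fold change 0.81, limma adjusted p = 0.161). The 4 tested dimer partners of NR4A and Npas4 proteins (Rxra, Rxrb, Arnt and Arnt2) were all at log2 fold changes between -0.11 and -0.09 and 0 were called, with 0 at an unadjusted p-value under 0.05.

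**Figure D2:**
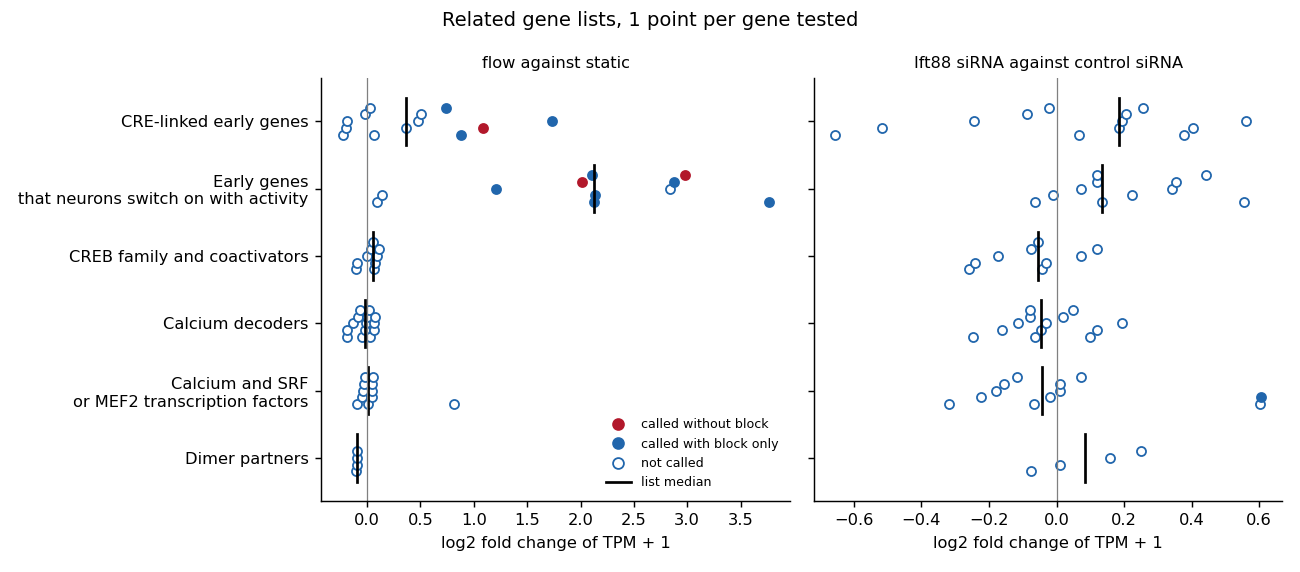
Log2 fold changes on the log2(TPM + 1) scale for each tested gene of 6 related lists, for flow against static (left) and Ift88 siRNA against control siRNA (right), with list medians as bars. The early genes of neurons spread from 0.09 to 3.76 under flow, while the CREB, calcium and dimer partner lists stay within 0.2 of 0 apart from Srf.

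The Ift88 siRNA comparison shows how these genes stood after a partial loss of Ift88 transcripts. The paper reports fewer ciliated cells and shorter cilia after this siRNA, and cilia were not measured in these libraries. With no siRNA group kept static, whether the response of these genes to flow depends on cilia was not tested. Ift88 itself was at 1.30 ± 0.327 TPM (SD, n = 4) in the Ift88 siRNA libraries and 4.14 ± 0.0541 TPM (SD, n = 4) in the control siRNA libraries. Nr4a1 and Arc were slightly higher and Nr4a2 slightly lower in every Ift88 siRNA library than in any control library, and Nr4a3, Npas4 and Crem overlapped. The margin of Nr4a2 was below the value of 1 read. None of the 4 tested members was called by limma, and 2 (Nr4a1 and Arc) had an unadjusted p-value under 0.05, as did 13.9% of all genes tested. Over all genes, limma called 25 of 11209 (0.223%), of which 17 were higher and 8 lower with Ift88 siRNA, and median-of-ratios scaling gave 12 higher and 10 lower. Between 15713 and 16682 genes were above 0 in the Ift88 siRNA libraries and between 15292 and 15382 in the control libraries, and the part of this difference in the results was not tested.

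**Figure D3:**
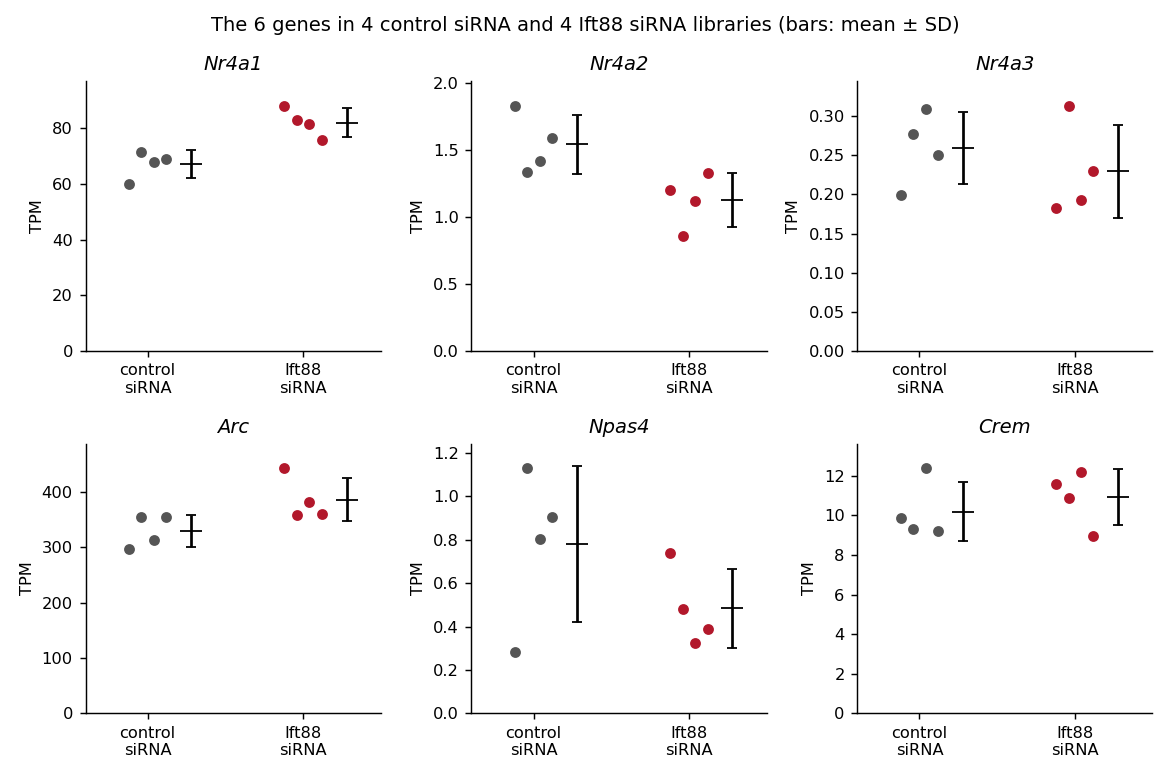
TPM of each gene in the 4 control siRNA and 4 Ift88 siRNA libraries, each a point, with the mean ± SD to the right of the points; each axis starts at 0. Nr4a1 lies between 59.9 and 71.5 TPM in control libraries and between 75.6 and 88.2 TPM in Ift88 siRNA libraries, and the points of Crem overlap.

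Nr4a1 was at 88.2, 83.0, 81.5 and 75.6 TPM in Ift88 siRNA replicates 1 to 4 and at 59.9, 71.5, 67.8 and 69.0 TPM in control replicates 1 to 4. The groups did not overlap, as was true in this direction of 5.79% of genes tested. The log2 fold change was 0.29 (standard error 0.07, limma adjusted p = 0.104), a ratio of mean TPM of 1.22. Arc was at 442.9, 359, 381 and 361 TPM with Ift88 siRNA and at 298, 355, 313 and 354 TPM with control siRNA. Its lowest Ift88 siRNA library (359 TPM) lay just above its highest control library (355 TPM), and the log2 fold change was 0.22 (standard error 0.08, limma adjusted p = 0.245). Nr4a2 was at 1.20, 0.856, 1.12 and 1.33 TPM with Ift88 siRNA and at 1.83, 1.34, 1.42 and 1.59 TPM with control siRNA. It was lower without overlap by a narrow margin, as were 2.79% of genes tested, and its log2 fold change was -0.26 (standard error 0.14, limma adjusted p = 0.431). Its estimated reads were 23 to 50 per Ift88 siRNA library and 38 to 51 per control library. The nearest Nr4a2 libraries, at 1.326 and 1.336 TPM, differed by less than the value of 1 read (0.0263 and 0.0341 TPM), within counting error. For Nr4a1, Arc and Nr4a2 p = 0.0286 by the two-sided exact permutation test, which is the lowest p that 4 libraries against 4 allow, and 12 such tests were made over the 6 genes and both experiments.

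Npas4 was at 0.741, 0.481, 0.326 and 0.387 TPM with Ift88 siRNA and at 0.282, 1.13, 0.805 and 0.904 TPM with control siRNA. The control values spanned those of the other group, and the exact permutation test gave p = 0.229 at about 8 to 34 reads per library. Nr4a3 lay between 0.182 and 0.314 TPM with Ift88 siRNA and between 0.20 and 0.309 TPM with control siRNA (exact permutation p = 0.429). Crem lay between 8.96 and 12.2 TPM with Ift88 siRNA and between 9.19 and 12.4 TPM with control siRNA. Its log2 fold change was 0.09 (95% confidence interval -0.17 to 0.36, limma adjusted p = 0.786), and the exact permutation test gave p = 0.514.

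**Figure D4:**
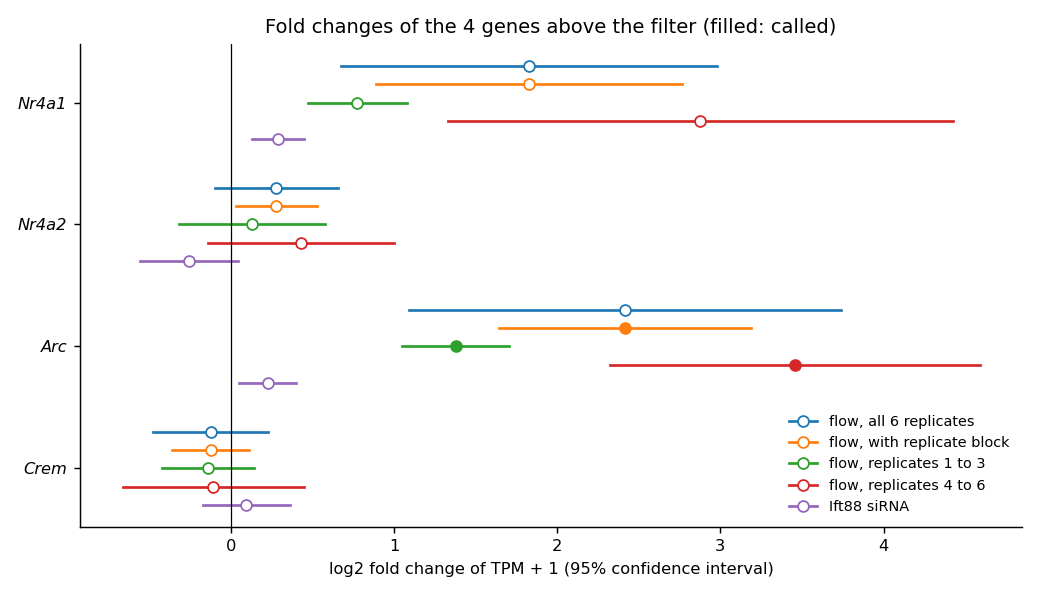
Log2 fold changes on the log2(TPM + 1) scale with 95% confidence intervals for the 4 genes above the filter, for flow against static in 4 fits and for Ift88 siRNA against control siRNA; filled points were called. Arc is filled with the replicate block and within each set of 3 replicates, and the intervals of Crem include 0 in each fit.

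The levels of both siRNA groups were set beside those of the flow experiment without a test. The tables were normalised separately, the siRNA cells were also transfected, and their labels give no flow time. What sets the levels of the experiments apart therefore cannot be told from these data. Arc was at 298 to 442.9 TPM over the 8 siRNA libraries, above the 189 TPM of its highest flow library. Nr4a1 lay at 59.9 to 88.2 TPM, between the flow libraries of replicates 1 to 4 and those of replicates 5 and 6. Nr4a3 was detected in 8 of 8 siRNA libraries, and Npas4 likewise. Within the family, Nr4a1 made up 98.0% to 98.6% of the summed NR4A TPM with Ift88 siRNA and 96.7% to 97.8% with control siRNA. In both siRNA groups the means fell in the order Arc, Nr4a1, Crem, Nr4a2, Npas4 and Nr4a3, and neighbours did not overlap apart from Npas4 and Nr4a3 in the control libraries.

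In the related lists 0 genes were called by limma between the siRNA groups. The early genes of neurons had log2 fold changes from -0.06 (Egr2) to 0.56 (Fos), with a median of 0.13 against 0.02 over all genes tested, and 5 of 11 had an unadjusted p-value under 0.05, where 13.9% of all genes did. The CRE-linked early genes ran from -0.66 (Rgs2, a regulator of G protein signalling) to 0.56 (Dusp1), and 6 of 13 had an unadjusted p-value under 0.05. Fos and Dusp1 had limma adjusted p-values of 0.0480 and 0.0481 and changed by under 1.5-fold once 1 was added to each TPM, with ratios of mean TPM of 1.53 and 1.49. With a pseudocount of 0.1, Fos was called (log2 fold change 0.61, limma adjusted p = 0.0473) and Dusp1 was not. The CREB family ran from -0.26 (Crtc3) to 0.12 (Creb3) and the calcium decoders from -0.25 (Ppp3cb) to 0.19 (Camk2b), with 0 unadjusted p-values under 0.05 in either list. Srf was highest among the transcription factors (0.61, limma adjusted p = 0.0739) and Elk3 lowest (-0.32), with 3 of 12 at an unadjusted p-value under 0.05. The dimer partners ran from -0.08 (Rxrb) to 0.25 (Arnt), and 1 of 4 had an unadjusted p-value under 0.05.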

How the data were processed

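RNA-seq libraries of DC2 cells (12 in the flow experiment, 8 in the siRNA experiment) were grouped by their labels, and 1 library with conflicting labels was counted as flow. The authors deposited TPM for 21509 protein-coding genes in 1 table per experiment. Per the study's methods, poly(A) reads were quantified by kallisto against mouse transcripts of Ensembl and collapsed to genes by tximport; the submitters' processing notes name kallisto 0.46.2, fastp 0.20.0, FastQC 0.11.8 and MultiQC 1.8, while the methods name Trimmomatic. TPM hold no counts, so no count test was run. Strand use in assigning reads is not given in the sources used here.

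Log2(TPM + 1) was fitted in limma (version 3.58.1, R 4.3.3; lmFit, eBayes with trend) for genes whose mean reached 1 TPM, and the procedure was checked on simulated data. Called genes passed an adjusted p-value of 0.05 and changed over 1.5-fold, the study's thresholds. Fold changes on this scale understate those of low genes. Exact permutation tests used Python 3.11.15. Reads behind a value were estimated from the steps among values under 0.3 TPM, of which 78.4% to 86.3% came out whole within 0.1 reads, and cover counting error only. Replicate numbers were taken to pair flow and static libraries because libraries with the same number, after subtracting group means, correlated over genes at 0.294, 0.463, 0.425, 0.468, 0.662 and 0.600 (highest with another number 0.263, 0.202, 0.509, 0.0632, 0.0932 and 0.197, so replicate 3 correlated better with another). Nothing in the labels says that replicates came from separate cultures, so p-values measure the spread between these libraries. The members and lists were chosen with earlier results of these data known. All 6 members were named, with, per list and comparison, up to 4 genes (those called, the highest and the lowest fold change) and the 3 genes nearest each tested member. Positions are from GENCODE M21 on GRCm38, an older build than the authors' annotation. Alternatives covered filters, pseudocount, scaling, library weights, block, single libraries and the doubtful label. The values of 1 marker gene are not reported here.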

Additional observations from a re-analysis of the deposited data

Results flagged for a closer look

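In groups of 4 or 6 libraries, the gap of the highest or lowest library to its neighbour was compared with Dixon's critical value on log2(TPM + 1), in 24 groups of which 2 were past it. Chance alone marks about 1 in 20 groups. Both are static replicate 6. Crem was at 18.5 TPM there, against 9.42 to 11.9 TPM in the other static libraries, and without this library the log2 fold change of Crem under flow was 0.00 against -0.12 with it. Nr4a3 was at 0.197 TPM there, about 16 reads, against 0.0228 to 0.0620 TPM in the other static libraries.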

How the results depend on the processing

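Under flow, none of the 4 tested members was called in the unweighted fit of all 12 libraries without a block, and 1 (Arc) passed with library weights (limma adjusted p = 0.0251), with the replicate block, within replicates 1 to 3 and within replicates 4 to 6. In fits chosen after seeing the data, with the block and 1 pair left out, Arc alone was called without replicate 3, 4, 5 or 6 (1 member each) and 2 members, Arc and Nr4a1 (limma adjusted p = 0.0165), without replicate 2. With the block and no filter, also added afterwards, 0 members were called. The paired exact test of Nr4a2 gave 0.0312 with the replicate block against 0.158 without it, and pairing changed no other exact call. Leaving out each of the 12 libraries in turn without a block gave 0 to 0 members called, with limma adjusted p-values of 0.0508 to 0.588 for Arc and 0.0945 to 0.915 for Nr4a1. Over these 12 fits the log2 fold change of Crem ran from -0.224 to 0.004, turning its direction without static replicate 6, and the cause was not tested. Over all genes the count of 12 called rose to 28 with median-of-ratios scaling, 86 with library weights, 68 with the block and 87 without flow replicate 2 (5 to 14 without any other single library), and fell to 0 with flow replicate 6 counted as static (limma; 181 genes had unadjusted p-values under 0.05) and 2 with no filter on low TPM. Library weights and the fit without flow replicate 2 each called 11 genes lower under flow, beside 75 and 76 higher. The blocked fit called 58 lower and 135 higher without replicate 2, and 1 lower and 33 higher without replicate 5. Filters, pseudocount, scaling and the absence of a fold threshold called no member.

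In the siRNA experiment no member was called under any of 16 alternatives, including 8 that left out 1 library (0 to 0 members called). Same-numbered siRNA libraries correlated at 0.0464, 0.00276, 0.259 and 0.176, so they share only a number. The replicate block called 0 members and moved the count over all genes from 25 to 44, Srf among them (limma adjusted p = 0.0238). The counts were 48 with library weights, 71 with no fold threshold, 16 with a filter at a mean of 0.1 TPM, 6 with no filter and 11 to 23 with 1 library left out. The estimated reads limit what Npas4, Nr4a3 and Nr4a2 can show in either experiment.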
